A study of Mus musculus with 17 samples.

Results

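LYVE1+CX3CR1+ and MHCII+CD11c- macrophages of the synovium, the membrane that encloses a joint, were compared in control mice. The comparison used 6 of the 17 libraries of the series: all 3 control libraries of each subset, chosen by their titles. Of 22859 genes in the count table, 15272 passed a filter on low counts and were tested. All libraries of the series, controls included, came from adult mice labelled as knockouts of Fcgr2b, the inhibitory Fc receptor for immunoglobulin G. The other libraries held MHCII+CD11c+ macrophages and the 3 subsets taken 8 h after an intravenous dose of immune complexes (IC), aggregates of antigen with its antibodies. In the titles Lyve1 was read as LYVE1+CX3CR1+, IAIE (the I-A and I-E class II molecules) as MHCII+CD11c- and CD11c as MHCII+CD11c+. Cells were sorted by flow cytometry on these surface proteins after collagenase digestion, and RNA of each sorted population was sequenced in bulk. The labels do not say whether the libraries of a group came from separate mice, so the p-values measure the spread between these libraries only, which may be technical. In such bulk RNA, fewer cells of a type and less RNA per cell cannot be told apart.

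Macrophages are resident phagocytes that take up debris, pathogens and antibody-coated material. In the synovium, macrophages at the lining form a layer facing the joint cavity and are known for CX3CR1, while interstitial macrophages beneath it include cells with MHC class II. Class II molecules carry peptides from endocytosed proteins to the cell surface, where CD4+ T cells read them. Their expression depends on the coactivator CIITA, which is held at class II promoters by proteins bound to conserved sequences called the X and Y boxes.

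The 6 libraries held between 2886696 and 7248939 counts. Fcgr2b was still counted in every library of the series, at 69.3 to 248 CPM (counts scaled to library size and composition), and the table does not say which exons those reads cover. All 13 macrophage genes listed as a check, among them Adgre1, Csf1r and Cd68, were counted above 3 counts in at least 1 library of each subset, and their summed level was 15112 to 18907 CPM in LYVE1+CX3CR1+ and 15990 to 19253 CPM in MHCII+CD11c- libraries. The sort genes followed the labels. H2-Eb1, the beta chain of I-E, stood at 3.78, 4.59 and 7.54 CPM in the LYVE1+CX3CR1+ libraries against 2249, 1938 and 2285 CPM. Lyve1, a hyaluronan receptor, stood at 1727, 1801 and 2338 CPM against 695, 1131 and 730 CPM, so RNA of the MHCII+CD11c- sort was not free of it.

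Among the 3 MHCII+CD11c- control libraries, library 2 lay nearest to the LYVE1+CX3CR1+ libraries. Library 2 of the MHCII+CD11c- controls had correlations of log2 CPM of 0.934 to 0.950 with the LYVE1+CX3CR1+ libraries, against 0.933 and 0.889 with the other libraries of its own group. Libraries 1 and 3 of that group had 0.855 to 0.925 with the LYVE1+CX3CR1+ libraries and 0.905 with each other. By these correlations library 3 was the most distant, at 0.855 to 0.884 with the LYVE1+CX3CR1+ libraries. Libraries 2 and 3 held 5804056 and 2886696 counts, and the part of depth in these correlations was not tested. In 62.2% of the genes called below and in 47.6% of all genes tested, library 2 was the one of the 3 nearest to the LYVE1+CX3CR1+ mean. Its H2-Aa, H2-Ab1, H2-Eb1 and Cd74 were near the level of its own group, while Ctss, a protease of the class II pathway, had 2605 CPM against 1253 and 1140 CPM. That was also above the LYVE1+CX3CR1+ libraries, at 1930 to 2289 CPM. Vsig4, a complement receptor of resident macrophages, reached 306 CPM in it, 29.0 and 22.4 CPM in the other MHCII+CD11c- libraries, and 1119 to 1209 CPM in LYVE1+CX3CR1+ libraries. Library 2 was also far above its own group in genes chosen after their values were known. F11r, a tight junction protein, had 83.1 CPM against 9.38 and 5.02 CPM, with 127 to 155 CPM in LYVE1+CX3CR1+ libraries. Other genes were above both groups in it. S100b, a calcium-binding protein, had 56.2 CPM against 0.64 and 1.0 CPM, with 36.5 to 50.1 CPM in LYVE1+CX3CR1+ libraries. Fn1, which encodes fibronectin, had 9652 CPM against 1137 and 673 CPM, with 3440 to 5166 CPM in LYVE1+CX3CR1+ libraries. Results are therefore also given without this library where that matters, and how this library came to differ was not tested.

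Of the 15272 genes tested, 238 (1.56%) were called different at an adjusted p under 0.05 (edgeR quasi-likelihood F test, Benjamini-Hochberg). They comprised 52 genes higher in LYVE1+CX3CR1+ macrophages (0.340% of genes tested) and 186 lower (1.22%). Higher and lower below always refer to LYVE1+CX3CR1+ against MHCII+CD11c- controls, and fold changes are log2 units ± SE with n = 3 libraries in each group. The lower genes differed more. Their median was -2.72, or -2.56 with genes at the floor set to their bound, and 82 passed 3 log2 units, while the higher genes had a median of 1.15 and 3 of them passed 3 log2 units. The higher genes were the more abundant, with a median level of 128 CPM over the 6 libraries against 26.4 CPM. The floor of a library was set at 3 counts: 32 of the lower genes were at or under it in each LYVE1+CX3CR1+ library, and 1 higher gene, Ramp2, was so in each MHCII+CD11c- library.

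**Figure D1:**
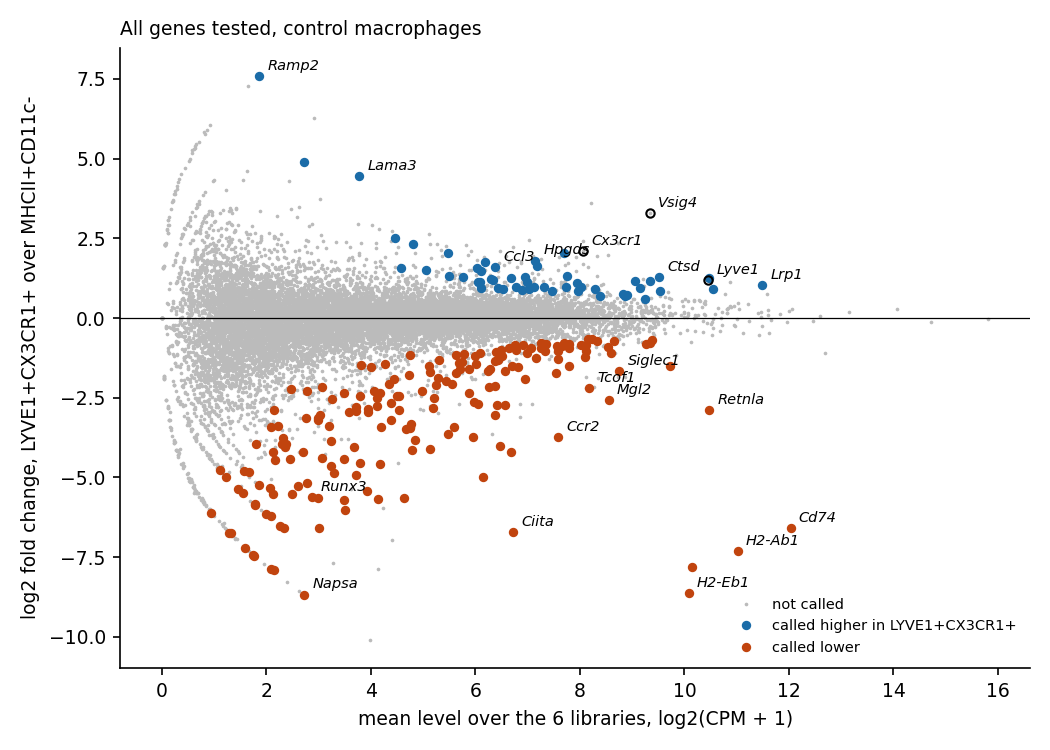
Log2 fold change of LYVE1+CX3CR1+ over MHCII+CD11c- control macrophages (vertical axis) against the mean level over the 6 libraries as log2(CPM + 1) (horizontal axis), 1 point per gene tested. Blue points are the 52 genes called higher, orange points the 186 called lower and grey points the genes not called. The class II genes lie at the bottom right, and Lyve1, Cx3cr1 and Vsig4, ringed in black, were not called.

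Libraries of the 2 subsets did not overlap in 237 of the 238 called genes, the exception being Sema4a, a semaphorin. Among all genes tested, 11.3% had all 3 LYVE1+CX3CR1+ libraries above all 3 MHCII+CD11c- libraries and 10.3% had them under. Fold changes were positive in 7573 of the 15272 genes and negative in 7685. The number of calls depended on single libraries: it was 115, 411 and 126 without MHCII+CD11c- library 1, 2 or 3, and 99, 128 and 96 without LYVE1+CX3CR1+ library 1, 2 or 3. In a fit on the 6 libraries alone, 494 of 12610 genes were called (3.92%), 171 of them higher (1.36%) and 323 lower (2.56%). Of the 52 higher genes 48 were also called there, as were 154 of the 173 lower genes it tested. Without MHCII+CD11c- library 2, 411 of 15144 genes were called (2.71%), 139 of them higher (0.918%) and 272 lower (1.80%), and 45 of the 52 and 170 of the 186 were called again. Over 20 alternative settings, which included each library left out, 5 higher genes (Gpr137b, Elmo1, Hpgds, Mef2a and Arsb) and 54 lower genes were called in every setting that tested them. Where a gene below was lost under any setting, its highest adjusted p over these alternatives is given as "up to".

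Genes of class II presentation made up the extreme of the comparison. Of 20 listed members tested, 9 were lower (45%) and 0 higher, with a median of -1.49, or -0.73 with genes at the floor set to their bound and those at the floor in both groups left out. The median of all genes tested was -0.004. Since the sort used I-A and I-E proteins, the low levels of their chains in LYVE1+CX3CR1+ cells are a check of the sort and not a result. Without MHCII+CD11c- library 2 the count was again 9, and over the alternatives it ranged from 7 to 10.

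The chains themselves stood furthest apart. H2-Eb1, with the levels given above, differed by -8.64 ± 0.28 (adjusted p = 3.23e-15). H2-Ab1, the beta chain of I-A (chromosome 17, 34257689 to 34269419, plus strand), stood at 19.4, 36.8 and 21.9 CPM against 3883, 4307 and 4158 CPM (-7.32 ± 0.35, adjusted p = 1.35e-09). H2-Aa, the alpha chain of I-A (chromosome 17, 34282744 to 34287823, minus strand), stood at 5.35, 17.3 and 8.37 CPM against 2134, 2247 and 2336 CPM (-7.80 ± 0.47, adjusted p = 5.45e-07). Library 2 of the MHCII+CD11c- controls was close to the others of its group in these 3 genes, while LYVE1+CX3CR1+ library 2 was the highest of its group in H2-Ab1 and H2-Aa.

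Ciita and Cd74, not targets of a sort antibody, were lower too. Ciita, the class II coactivator (chromosome 16, 10480059 to 10528418, plus strand), stood at 1.42, 1.35 and 2.79 CPM against 214, 165 and 242 CPM (-6.72 ± 0.47, adjusted p = 2.64e-07). Cd74, the invariant chain that guides class II molecules through the cell (chromosome 18, 60803848 to 60812652, plus strand), stood at 73.5, 97.0 and 87.6 CPM against 9342, 7950 and 7546 CPM (-6.59 ± 0.34, adjusted p = 2.69e-09). Cd74 was thus the class II gene with the highest level left in LYVE1+CX3CR1+ libraries, among those called.

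The H2-DM molecule, which loads peptides onto class II in endosomes, was lower in its 3 listed chains. H2-DMb1 stood at 7.72, 12.7 and 11.2 CPM against 190, 195 and 192 CPM (-4.20 ± 0.39, adjusted p = 8.24e-06). H2-DMa differed by -4.01 ± 0.59 (adjusted p = 0.0046). H2-DMb2, at 0.837 to 2.43 CPM against 9.03 to 18.1 CPM, differed by -3.18 ± 0.58 (adjusted p = 0.00618, up to 0.0653). H2-Eb2, a further beta chain gene, had 0 counts in all LYVE1+CX3CR1+ libraries and 1.49, 2.65 and 10.4 CPM in the others, at least 8.52-fold lower (adjusted p = 0.0329, up to 0.173). The chains of H2-O, which restrains H2-DM, were low in both subsets: H2-Ob had 7.57 to 10.2 CPM against 8.32 to 17.7 CPM (adjusted p = 0.947), and H2-Oa had at most 2.34 CPM in any of the 6 libraries.

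Other genes of the same pathway were not called. The DNA-binding factors Rfx5, Rfxap, Rfxank, Nfya, Nfyb and Nfyc, which hold CIITA at the promoter, had fold changes between -0.40 and 0.23 log2 units (adjusted p from 0.831 to 0.996). Rfx5 stood at 13.5, 14.3 and 13.4 CPM against 20, 16.3 and 12.0 CPM. Ctss and Lgmn, endosomal proteases that trim the invariant chain and antigens, differed by 0.34 ± 0.38 and 0.48 ± 0.20, and Ifi30, a thiol reductase of antigen processing, by -0.41 ± 0.19 (adjusted p = 0.943, 0.338 and 0.431). Ctss overlapped between the subsets. Lgmn did not, at 1514, 1390 and 1709 CPM against 1220, 988 and 1101 CPM (unadjusted p = 0.0227), nor did Ifi30, at 130, 179 and 135 CPM against 190, 206 and 192 CPM (unadjusted p = 0.0384). In the class II stretch of chromosome 17, from 34092340 to 34341412, 15 genes were tested and 8 were lower. Besides 7 of the listed genes the eighth was Tap1, which moves peptides for class I molecules (38.4, 34.6 and 41.3 CPM against 111, 111 and 123 CPM; -1.59 ± 0.26, adjusted p = 0.00142).

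**Figure D2:**
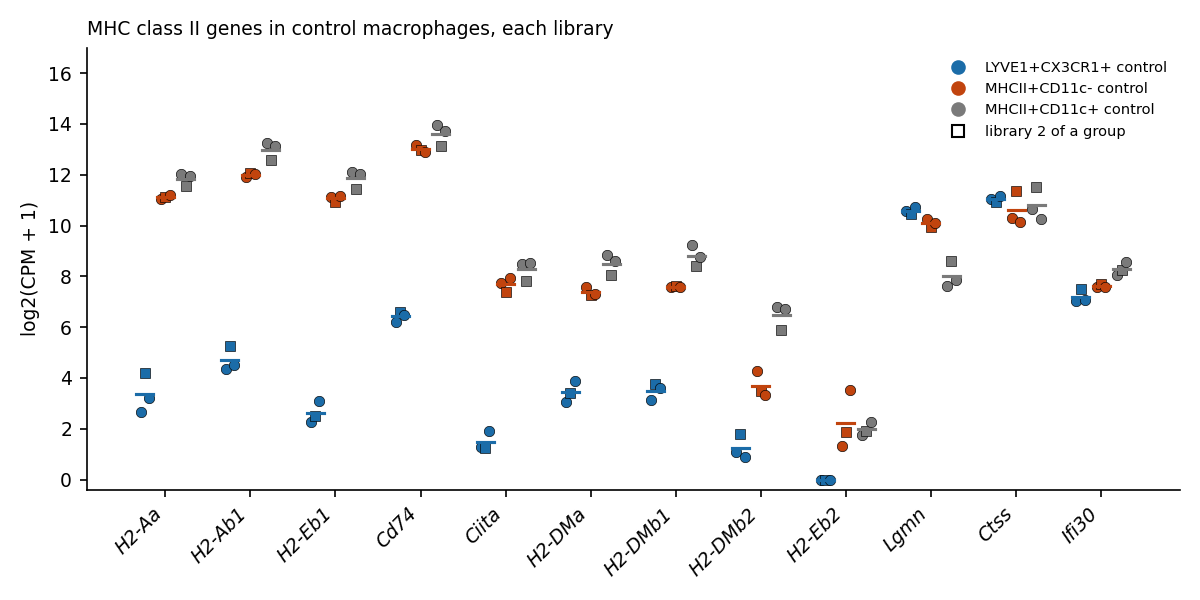
Level of 12 class II pathway genes in each control library as log2(CPM + 1), with LYVE1+CX3CR1+ in blue, MHCII+CD11c- in orange and MHCII+CD11c+ in grey; squares are library 2 of a group and short lines are group means. The first 9 genes lie lower in every LYVE1+CX3CR1+ library than in every MHCII+CD11c- library, while Lgmn, Ctss and Ifi30, which were not called, lie much closer together in both subsets.

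Promoters of 5 called class II genes are printed to show letters that 4 of them share. A window of 250 bases before to 50 bases after each start was taken from RefSeq for GRCm38.p6. It was searched on both strands for the letters AACNGATG (from the X box) and ATTGG (Y box, also read as CCAAT on the other strand), which were chosen after the calls were known. The X letters were in 762 of 32851 windows (2.32%) and the Y letters in 12289 (37.4%). Both in order on 1 strand, with 15 to 25 bases between them, were in 5 windows of the whole table (0.0152%), those of H2-Eb1, H2-Eb2, H2-DMb1, H2-DMb2 and BC051142. That last symbol was not among the called genes, and whether it was tested was not checked. Capitals mark the X and Y letters in the windows chr17:34305617-34305916 (H2-Eb1), chr17:34325425-34325724 (H2-Eb2), chr17:34152941-34153240 (H2-DMb1) and chr17:34144999-34145298 (H2-DMb2), all on the plus strand, and in chr17:34287774-34288073 on the minus strand (H2-Aa).
H2-Eb1: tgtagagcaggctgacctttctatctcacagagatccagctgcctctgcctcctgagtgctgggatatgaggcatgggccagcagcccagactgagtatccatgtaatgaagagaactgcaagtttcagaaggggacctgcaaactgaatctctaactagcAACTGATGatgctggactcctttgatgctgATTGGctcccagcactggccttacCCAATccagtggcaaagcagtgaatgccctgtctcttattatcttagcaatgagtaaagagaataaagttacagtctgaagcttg
H2-Eb2: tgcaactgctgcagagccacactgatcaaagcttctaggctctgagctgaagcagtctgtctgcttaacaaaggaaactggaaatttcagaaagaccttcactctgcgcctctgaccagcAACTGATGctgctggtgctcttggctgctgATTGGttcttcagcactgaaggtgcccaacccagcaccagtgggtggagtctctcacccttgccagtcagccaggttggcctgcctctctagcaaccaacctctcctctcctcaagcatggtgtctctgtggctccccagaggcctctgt
H2-DMb1: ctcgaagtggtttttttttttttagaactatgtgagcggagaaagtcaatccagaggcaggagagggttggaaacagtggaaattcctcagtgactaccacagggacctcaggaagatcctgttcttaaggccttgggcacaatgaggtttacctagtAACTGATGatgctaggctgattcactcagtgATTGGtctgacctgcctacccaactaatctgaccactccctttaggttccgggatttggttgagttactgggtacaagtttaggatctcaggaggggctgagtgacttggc
H2-DMb2: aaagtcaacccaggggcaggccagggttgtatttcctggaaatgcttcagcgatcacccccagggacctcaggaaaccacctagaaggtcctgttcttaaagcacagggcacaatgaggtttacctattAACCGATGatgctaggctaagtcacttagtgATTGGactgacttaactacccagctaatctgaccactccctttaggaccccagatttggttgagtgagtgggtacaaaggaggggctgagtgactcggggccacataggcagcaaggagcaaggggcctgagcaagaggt
H2-Aa: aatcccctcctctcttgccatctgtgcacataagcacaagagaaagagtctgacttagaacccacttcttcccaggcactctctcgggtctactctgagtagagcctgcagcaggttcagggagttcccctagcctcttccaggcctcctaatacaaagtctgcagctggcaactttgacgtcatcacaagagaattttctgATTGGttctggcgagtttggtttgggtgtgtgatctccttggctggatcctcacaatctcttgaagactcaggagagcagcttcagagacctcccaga

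The X letters began 89 bases before the start of H2-Eb1, 130 before that of H2-Eb2, 92 before that of H2-DMb1 and 121 before that of H2-DMb2, with 22, 22, 23 and 23 bases to the Y letters. H2-Aa held the Y letters 48 bases before its start and no X letters of this spelling. So did 1 of the 2 windows of H2-DMa, with the Y letters at 198 bases. The uncalled H2-Oa and H2-Ob held the Y letters too, at 43 and 57 bases, without the X letters. Uncalled Ctss held the X letters at 207 bases and no Y letters. In Nfyc, also uncalled, 1 window held the X letters at 154 bases and Y letters, but not in the order and spacing searched. No X letters were in the windows of the other uncalled class II genes searched. H2-Ab1 and Ciita were not among the windows used. A match describes these letters and does not show that a factor binds there, and no match says only that the letters are not in this window.

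The gene next to Cd74 was lower as well. Tcof1, which encodes the nucleolar protein treacle (chromosome 18, 60813755 to 60848971, minus strand), stood at 113, 92.2 and 106 CPM against 502, 400 and 522 CPM (-2.19 ± 0.20, adjusted p = 2.64e-07). Its end lies 1102 bases from the end of Cd74 on the opposite strand. Whether counting used the strand is not given in the sources used here, so reads that run past the end of Cd74 cannot be told apart from those of Tcof1.

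Among genes that mark lining macrophages, the sort genes Lyve1 and Cx3cr1 included, 8 of 10 had positive fold changes and none was called at the adjusted threshold, with a median of 1.12. Cx3cr1, the fractalkine receptor, stood at 435, 333 and 528 CPM against 58.0, 150 and 92.6 CPM (2.10 ± 0.73, adjusted p = 0.267). Vsig4 differed by 3.29 ± 1.58 (adjusted p = 0.531). Sparc, a matrix protein, stood at 302, 267 and 350 CPM against 32.6, 182 and 24.4 CPM (1.93 ± 0.84, adjusted p = 0.451). In each of these 3 genes library 2 was the highest of the MHCII+CD11c- libraries, and still under all LYVE1+CX3CR1+ libraries.

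Trem2, a lipid receptor, overlapped between the subsets, at 200, 153 and 144 CPM against 42.0, 160 and 36.8 CPM. Timd4, a phosphatidylserine receptor of long-lived macrophages, stood at 138 to 185 CPM against 46.1 to 148 CPM (adjusted p = 0.288), and Folr2, a folate receptor, at 98.6 to 146 CPM against 87.5 to 129 CPM (adjusted p = 0.994). Cd163, a scavenger receptor for haemoglobin, lay the other way, at 1166, 1170 and 1295 CPM against 2181, 1151 and 1909 CPM (-0.53 ± 0.22, adjusted p = 0.337). So did Axl, also a member of this list, at 105, 98.4 and 108 CPM against 120, 153 and 127 CPM without overlap (-0.36 ± 0.20, adjusted p = 0.588). Lyve1 did not overlap between the subsets and was not called in the fit on 17 libraries (1.20 ± 0.81, adjusted p = 0.786). The MHCII+CD11c+ controls, which enter that fit, had Lyve1 at 29.8, 382 and 25.3 CPM, so library 2 stood apart there too. What those libraries add to the spread was not tested. In the fit on the 6 libraries alone, Lyve1 and Cx3cr1 were called higher (adjusted p = 0.00712 and 0.0107). Without MHCII+CD11c- library 2, Cd163 was called lower (adjusted p = 0.0419) and no other member was called. Over the alternatives between 0 and 5 of the 10 lining genes were called, 0 of them by DESeq2 and 2 by voom, and 5 had an unadjusted p under 0.05. Of 13 junction and polarity genes tested, none was called by edgeR, DESeq2 or voom, and 1 had an unadjusted p under 0.05 (median 0.43).

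**Figure D3:**
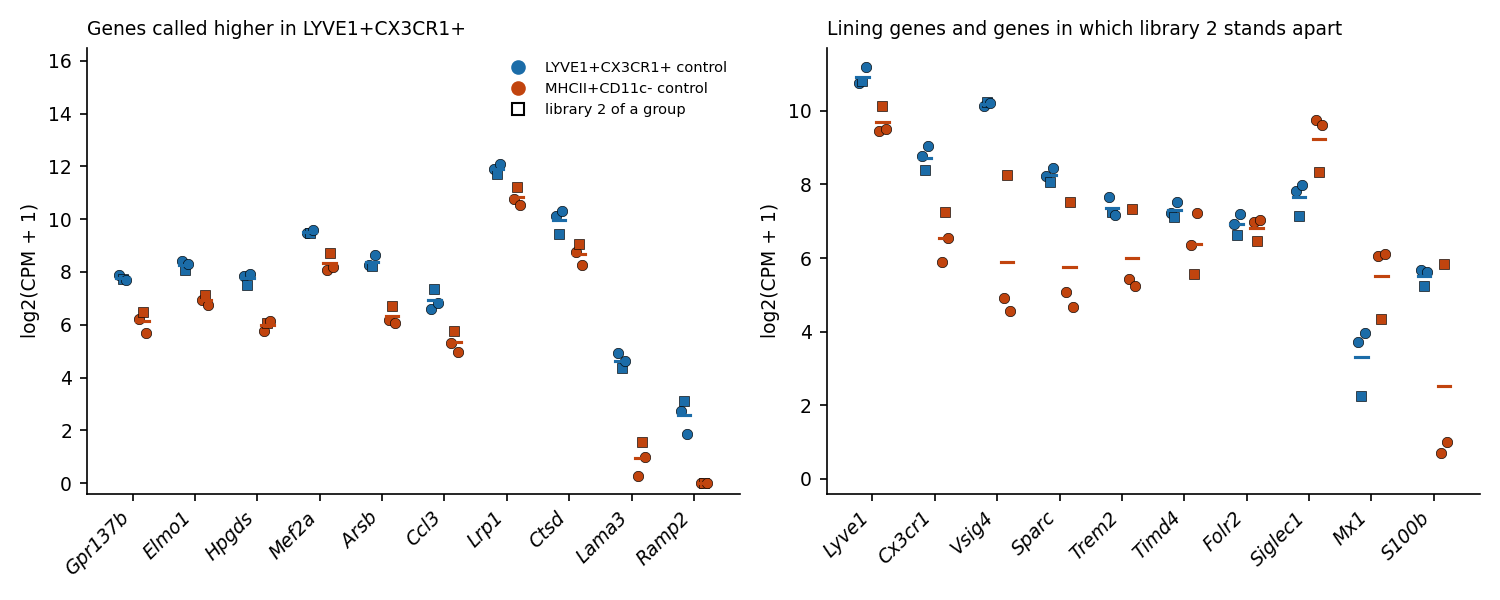
Level in each control library as log2(CPM + 1), LYVE1+CX3CR1+ in blue and MHCII+CD11c- in orange, squares for library 2 of a group, short lines for means. Left, 10 genes called higher, in which no library of one subset overlaps the other; right, 10 lining genes and genes chosen because library 2 of MHCII+CD11c- stands apart, such as Vsig4 at 306 CPM in it against 29.0 and 22.4 CPM.

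Of 48 lysosome genes 2 were higher and 1 lower (6.25% called, median 0.32, 36 of 48 positive). Among 26 genes of dead cell uptake 2 were higher and none lower (7.69% called, median 0.38). Of all genes tested 1.56% were called, and 7573 of 15272 had positive fold changes. Gpr137b, a lysosomal membrane protein, was called under all alternatives, and its near-identical copy Gpr137b-ps, which may share its reads, was higher too (155, 195 and 176 CPM against 81.5, 79.0 and 54.8 CPM; adjusted p = 0.0097, up to 0.0853). Ctsd, an aspartic protease of the lysosome, stood at 1123, 686 and 1279 CPM against 433, 536 and 306 CPM (1.28 ± 0.28, adjusted p = 0.0208, up to 0.126). Arsb, the lysosomal arylsulfatase B, which is not on that list (chromosome 13, 93771630 to 93943016, plus strand), stood at 306, 299 and 397 CPM against 72.3, 104 and 65.9 CPM (2.05 ± 0.35, adjusted p = 0.006). The lower lysosome gene was Ctsh, an aminopeptidase, at 115 to 194 CPM against 302 to 467 CPM (-1.23 ± 0.21, adjusted p = 0.00246).

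Lrp1, an endocytic receptor for many ligands, was the most abundant higher gene, at 3785, 3363 and 4414 CPM against 1754, 2393 and 1468 CPM (1.04 ± 0.25, adjusted p = 0.0346, up to 0.203). Elmo1, an adaptor that activates Rac in engulfment, was called under all alternatives, with LYVE1+CX3CR1+ libraries at 270 to 338 CPM and the others at 106 to 140 CPM. Other members of that uptake list, among them Mertk, Axl and Timd4, were not called. Axl, a receptor tyrosine kinase, stood at 98.4 to 108 CPM against 120 to 153 CPM (adjusted p = 0.588).

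Hpgds, the synthase of prostaglandin D2 (chromosome 6, 65117293 to 65144908, minus strand), stood at 232, 182 and 240 CPM against 53.3, 65.2 and 69.9 CPM (1.80 ± 0.29, adjusted p = 0.00117). Each LYVE1+CX3CR1+ library was far above each of the others, and the MHCII+CD11c+ control mean was 18.3 CPM. Of 16 mediators known to act on pain neurons, Hpgds was the only one higher. Ptgs2, the inducible cyclooxygenase, and Il6 were lower: Ptgs2 at 7.24, 22.2 and 13.5 CPM against 30.9, 102 and 47.8 CPM (-2.10 ± 0.46, adjusted p = 0.0254, up to 0.147), and Il6 at 1.89, 4.86 and 2.79 CPM against 13.9, 31.5 and 18.1 CPM (-2.79 ± 0.64, adjusted p = 0.0432, up to 0.244). Their levels in MHCII+CD11c+ controls were 132 and 179 CPM.

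Mef2a, a transcription factor outside the lists, stood at 716, 713 and 764 CPM against 267, 426 and 294 CPM (1.15 ± 0.21, adjusted p = 0.0046). Zmiz1, a coactivator, and Qki, an RNA-binding protein, differed by 0.94 ± 0.18 and 0.73 ± 0.15 (adjusted p = 0.006 and 0.0102, up to 0.0587 and 0.112). Of 50 listed transcription factors (median -0.10) 1 was higher and 2 were lower. Klf2 was higher by a small step, at 717, 737 and 739 CPM against 555, 449 and 446 CPM (0.60 ± 0.15, adjusted p = 0.048), and it was called in 4 of 20 alternatives (up to 0.293). Runx3 and Irf1 were lower. Runx3, a factor of lymphoid and dendritic cells, was at the floor in all LYVE1+CX3CR1+ libraries and had 17.9, 7.60 and 12.0 CPM in the others, at least 22.1-fold lower (adjusted p = 9.18e-06).

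Further higher genes were on no list and are given for their small p or high level. Rab11a, a GTPase of recycling endosomes, stood at 172, 177 and 173 CPM against 59.1, 106 and 72.6 CPM (1.14 ± 0.22, adjusted p = 0.00818, up to 0.0616). Arhgap22 and Tagap, which encode GTPase-activating proteins, differed by 2.03 ± 0.40 and 1.48 ± 0.29 (adjusted p = 0.00819 and 0.007, up to 0.0623 and 0.0628). Epb41l2, a linker of membrane and actin, and Tns1, which links integrins to actin, stood at 318 to 349 and 1731 to 2136 CPM against 97.0 to 218 and 874 to 1150 CPM (adjusted p = 0.00952 and 0.0118, up to 0.0678 and 0.113). Adgre5, an adhesion receptor known as CD97, differed by 1.15 ± 0.23 and Emp1, a membrane protein, by 1.25 ± 0.28 (adjusted p = 0.0102 and 0.027, up to 0.0848 and 0.127). Slc6a6, the taurine transporter, stood at 805 to 1115 CPM against 467 to 580 CPM (adjusted p = 0.0154, up to 0.143).

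Some higher genes with large fold changes were near absent from MHCII+CD11c- libraries. Lama3, a chain of basement membrane laminin (chromosome 18, 12333819 to 12583013, plus strand), stood at 29.5, 19.7 and 23.6 CPM against 0.213, 1.94 and 1.0 CPM (4.46 ± 1.01, adjusted p = 0.02, up to 0.124). Ramp2, which pairs with the calcitonin receptor-like receptor to bind adrenomedullin, had 5.67, 7.57 and 2.65 CPM and 0 counts in all MHCII+CD11c- libraries, at least 7.31-fold higher (adjusted p = 0.0315, but 0.073 without MHCII+CD11c- library 2 and up to 0.131). It was the only one of 10 neuropeptide receptor genes called. Ctla2a, an inhibitor of cysteine proteases, had 12.6, 6.76 and 13.3 CPM against 0, 0.884 and 0 CPM (adjusted p = 0.045, up to 0.219). Inpp4b, a phosphoinositide phosphatase, Plxna4, a semaphorin receptor at 96.5 to 120 CPM against 22.2 to 40.1 CPM, and Ankrd33b differed by 2.50 ± 0.53, 1.75 ± 0.38 and 2.32 ± 0.48 (adjusted p = 0.0131, 0.0174 and 0.0102, up to 0.09, 0.123 and 0.0575).

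Chemokine genes lay on both sides. Of 24 tested, 1 was higher and 4 were lower (median -0.86, or -0.66 with bounds). Ccl3, a chemokine that attracts leukocytes, was higher, at 95.8, 163 and 113 CPM against 38.6, 52.8 and 30.4 CPM (1.6 ± 0.30, adjusted p = 0.00579, up to 0.0527). Ccl8, a ligand made by tissue macrophages, was lower, at 32.4, 18.1 and 22.9 CPM against 144, 157 and 185 CPM (-2.72 ± 0.50, adjusted p = 0.0122, up to 0.0848). Cxcl12, the ligand of CXCR4, stood at 1.73, 4.86 and 5.58 CPM against 48.4, 14.3 and 72.9 CPM (-3.47 ± 0.71, adjusted p = 0.00979, up to 0.0863). Ccl12, a ligand of CCR2, and Ccl6 differed by -2.34 ± 0.47 and -1.51 ± 0.30 (adjusted p = 0.0097 and 0.0145, up to 0.108 and 0.101). Among 12 chemokine receptors Ccr2 and Ccr7 were lower and none was higher.

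**Figure D4:**
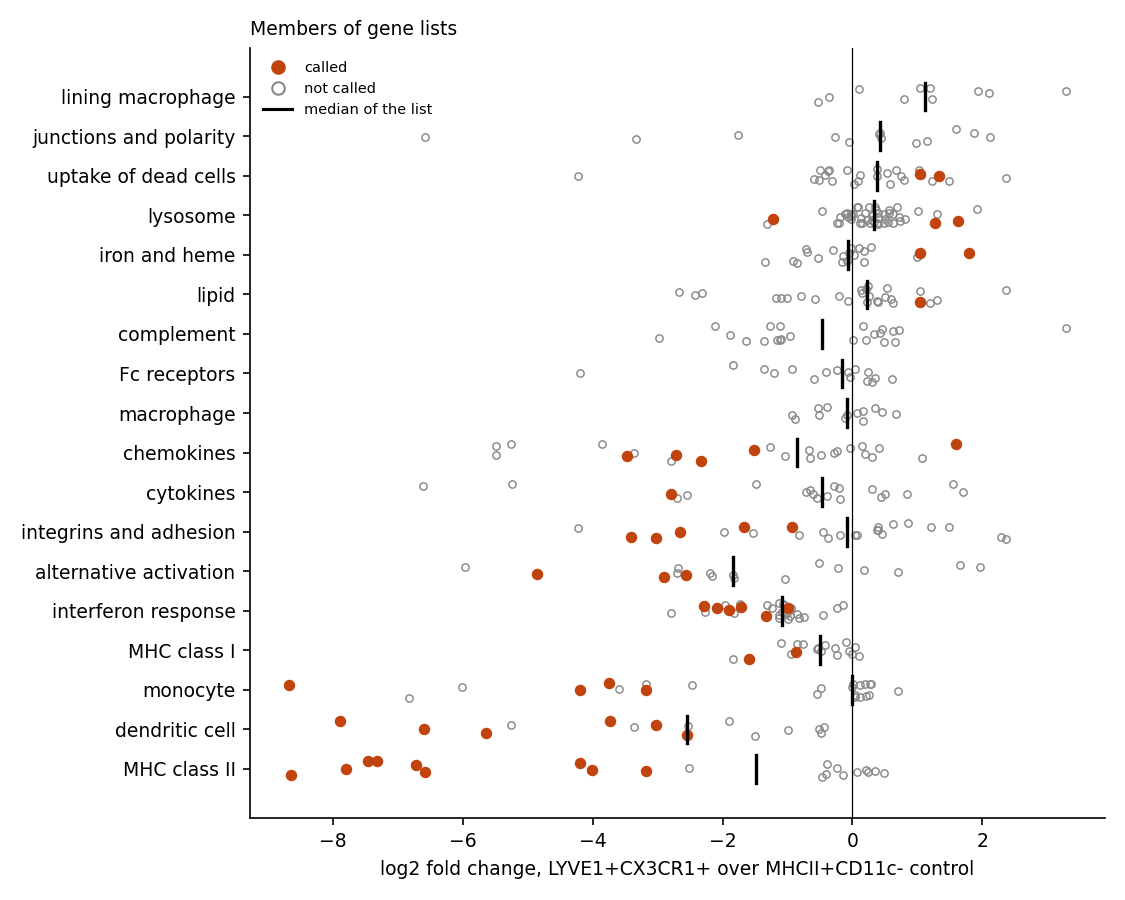
Log2 fold change of LYVE1+CX3CR1+ over MHCII+CD11c- controls for the tested members of 18 gene lists, 1 point per gene; filled points were called, open points were not, and black bars are list medians. The class II and dendritic cell lists hold the largest shares of called members (9 of 20 and 6 of 15), all of them lower, and all 31 interferon genes have negative values.

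Of 15 dendritic cell genes 6 were lower (40%) and 15 of 15 had negative fold changes (median -2.56, or -2.53 with bounds). Of all 15272 genes tested, 7685 had negative fold changes. Flt3, the receptor that drives dendritic cell growth, was at the floor in LYVE1+CX3CR1+ libraries and had 15.8, 6.36 and 18.7 CPM in the others, at least 24-fold lower (adjusted p = 0.000207). Dpp4, a surface peptidase, had 17.3, 4.59 and 20.1 CPM against the floor, at least 24.6-fold lower (adjusted p = 0.000578). Ccr7, the receptor for migration to lymph nodes, was at 0 counts in LYVE1+CX3CR1+ libraries and at 2.77, 1.41 and 16.4 CPM in the others, at least 12.1-fold lower (adjusted p = 0.0132, up to 0.0714). In Flt3 and Dpp4 library 2 was the lowest of the MHCII+CD11c- group.

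Cd209a, a lectin related to DC-SIGN whose paralogs Cd209b and Cd209c were also lower (adjusted p = 0.0346 and 0.0395, up to 0.212 and 0.231) and may share reads with it, stood at 8.03, 4.59 and 12.0 CPM against 115, 71.4 and 154 CPM (-3.74 ± 0.56, adjusted p = 0.00446, up to 0.0722). Cd24a differed by -2.56 ± 0.48 (adjusted p = 0.00819, up to 0.11). Itgax, which encodes CD11c and was part of the sort, stood at 0.541 to 2.20 CPM against 8.48 to 16 CPM. The mean levels of Flt3, Dpp4, Ccr7 and Cd209a in MHCII+CD11c+ controls were 36.8, 69.4, 32.8 and 313 CPM. Summed over the whole list, dendritic cell genes had 250 to 292 CPM in LYVE1+CX3CR1+ and 479 to 669 CPM in MHCII+CD11c- libraries.

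Of 23 monocyte genes 4 were lower and none higher, while the list median was -0.01. Ccr2, the receptor by which blood monocytes enter tissue (chromosome 9, 124101950 to 124113557, plus strand), stood at 18.3, 22.7 and 38.1 CPM against 481, 224 and 360 CPM (-3.74 ± 0.51, adjusted p = 0.00262). Napsa, an aspartic protease, had 0 counts in all LYVE1+CX3CR1+ libraries and 16.6, 4.77 and 12.4 CPM in the others, at least 19.8-fold lower (adjusted p = 7.42e-05). Ms4a4c differed by -4.19 ± 0.66 and Cd52, a small surface glycoprotein, by -3.19 ± 0.65 (adjusted p = 0.000996 and 0.0236, the latter up to 0.159). Ccr2, Napsa and Ms4a4c were called under all 20 alternatives.

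Genes of alternative activation, the programme driven by interleukin 4, were lower in 3 of 17 members and higher in none (median -1.84, or -2.0 with bounds). Mgl2, a galactose-binding lectin (chromosome 11, 70130329 to 70137550, plus strand), stood at 97.3, 94.9 and 130 CPM against 690, 466 and 762 CPM (-2.57 ± 0.33, adjusted p = 0.00044). Retnla, a secreted product of this programme, stood at 197, 517 and 293 CPM against 2117, 3493 and 1884 CPM (-2.90 ± 0.55, adjusted p = 0.0229, up to 0.126). Cd226, an adhesion receptor, had at most 1.89 CPM against 13.7 to 22 CPM (-4.86 ± 0.94, adjusted p = 0.027, up to 0.173). Mrc1, the mannose receptor, stood at 1745 to 2907 CPM against 2067 to 3878 CPM (adjusted p = 0.318), so the libraries overlapped.

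Interferon response genes pointed 1 way: 31 of 31 had negative fold changes, with a median of -1.09, against 7685 of all 15272 genes tested. In 17 of the 31 all LYVE1+CX3CR1+ libraries were under the others, against 10.3% of all genes tested. Of the 31, 6 were called lower (19.4%), against 3 by voom, 14 by DESeq2, 13 in the fit on the 6 libraries and 15 without MHCII+CD11c- library 2. Zbp1, a sensor of nucleic acid, stood at 25.8, 20 and 22.5 CPM against 92.8, 68.2 and 62.9 CPM (-1.71 ± 0.29, adjusted p = 0.00222). Gbp7, a guanylate-binding protein, stood at 56.5, 63.5 and 57.2 CPM against 126, 115 and 113 CPM (-1.0 ± 0.19, adjusted p = 0.00621, up to 0.0511). Mx1, an antiviral GTPase, stood at 12.3, 3.78 and 14.5 CPM against 65.7, 19.4 and 68.5 CPM (-2.28 ± 0.49, adjusted p = 0.0227, up to 0.122), with both libraries numbered 2 the lowest of their group. Ifi47, Mx2 and Isg15 were the other called members, with fold changes of -1.91 ± 0.48, -1.33 ± 0.34 and -2.08 ± 0.52 (adjusted p = 0.0387, 0.0418 and 0.0432, up to 0.175, 0.245 and 0.23).

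Of 18 class I genes Tap1 and H2-T23 were lower (median -0.51, 16 of 18 negative). H2-T23, a nonclassical class I molecule, stood at 146, 107 and 147 CPM against 266, 260 and 205 CPM (-0.87 ± 0.21, adjusted p = 0.0338, up to 0.226). Irf1, a factor downstream of interferon, stood at 235, 239 and 293 CPM against 380, 598 and 475 CPM (-0.92 ± 0.22, adjusted p = 0.0277, up to 0.162). Cd274, the ligand PD-L1, was the 1 called gene of 11 costimulatory genes, at 2.51 to 2.83 CPM against 9.60 to 14.0 CPM (-2.16 ± 0.44, adjusted p = 0.00952, up to 0.0831).

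Adhesion genes were lower in 5 of 24 members and higher in none (median -0.08). Itgb7, the integrin chain of gut homing, stood at 5.67, 6.22 and 4.47 CPM against 47.1, 21.2 and 34.8 CPM (-2.66 ± 0.33, adjusted p = 3.32e-05). Siglec1, the sialic acid receptor of tissue macrophages, stood at 225, 140 and 252 CPM against 859, 325 and 777 CPM (-1.66 ± 0.33, adjusted p = 0.0147, up to 0.0757), and its mean in MHCII+CD11c+ controls was 60.2 CPM. Selplg, the ligand of P-selectin, differed by -0.93 ± 0.21 (adjusted p = 0.0186, up to 0.156). Sdc3, a heparan sulphate proteoglycan that is not on this list, stood at 426 to 485 CPM against 676 to 889 CPM (-0.81 ± 0.19, adjusted p = 0.021, up to 0.13).

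Gpr132, Mefv and Fgl2 had some of the smallest p-values of the lower genes. Gpr132, a receptor for lipids and lactate, stood at 2.83, 3.51 and 2.23 CPM against 46.3, 41.7 and 62.2 CPM (-4.15 ± 0.43, adjusted p = 9.85e-06). Mefv, the inflammasome protein pyrin, stood at 0.315, 0.270 and 1.12 CPM against 20.7, 24 and 38.8 CPM (-5.41 ± 0.52, adjusted p = 6.72e-07). Fgl2, a secreted and membrane-bound fibrinogen-like protein, stood at 19.7, 17 and 15.5 CPM against 49.5, 86.6 and 85.9 CPM (-2.09 ± 0.23, adjusted p = 8.24e-06). All 3 were called under every alternative, and all 3 had higher means, 232, 106 and 173 CPM, in MHCII+CD11c+ controls.

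Wnt11, a secreted signalling protein, was at the floor in LYVE1+CX3CR1+ libraries and at 23.5, 18.6 and 18.4 CPM in the others, at least 35.5-fold lower (adjusted p = 7.64e-07). Nup210, a protein of the nuclear pore, stood at 0 to 1.26 CPM against 9.72 to 21.4 CPM (-4.63 ± 0.55, adjusted p = 3.61e-05). Klrk1, the activating receptor NKG2D, was at 0 counts against 6.19, 4.42 and 9.03 CPM, at least 11.5-fold lower (adjusted p = 0.000181). Ngfr, a receptor of nerve growth factor, and Cd177, a surface protein of neutrophils, were also at 0 counts in LYVE1+CX3CR1+ libraries and at least 5.30-fold and 8.30-fold lower (adjusted p = 0.00653 and 0.0422, the latter up to 0.192), as was Ccdc170 by at least 7.09-fold (adjusted p = 0.00619, up to 0.0577). In MHCII+CD11c+ controls Wnt11 and Nup210 had means of 161 and 113 CPM.

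In the lists that follow, 4% to 11.1% of the genes tested were called, each from 1 or 2 genes, against 1.56% of all genes tested. Hbegf, a ligand of the EGF receptor, was the 1 called growth factor of 23, at 11.2, 26.2 and 14.5 CPM against 57.6, 37.5 and 108 CPM (-1.98 ± 0.42, adjusted p = 0.0132, up to 0.143). Tlr9, the sensor of unmethylated DNA, was the 1 called gene of 24 pattern recognition genes (19.7 to 30.3 CPM against 40.3 to 110 CPM; -1.59 ± 0.33, adjusted p = 0.0122, up to 0.123). Il1r2, the decoy receptor of interleukin 1, and Flt3 were the 2 lower of 18 cytokine receptors, with Il1r2 at 0.541 to 0.945 CPM against 4.95 to 7.69 CPM (adjusted p = 0.00989, up to 0.0615). Adam8, a membrane protease, was the 1 of 25 protease genes (-2.82 ± 0.62, adjusted p = 0.045, up to 0.213), and Btg2 the 1 of 25 immediate early genes (-0.68 ± 0.17, adjusted p = 0.0387, up to 0.243).

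None of 22 complement genes, 16 Fc receptor genes, 31 cell cycle genes or 13 macrophage genes was called by edgeR at an adjusted p under 0.05. Their medians were -0.48, -0.16, -0.34 and -0.08. In the same order, 6, 4, 2 and 6 members had an unadjusted p under 0.05, DESeq2 called 2, 1, 1 and 0, voom called 0, 1, 0 and 0, and the fit on the 6 libraries called 2, 1, 1 and 2. C4b, a complement component, stood at 579, 457 and 665 CPM against 1469, 847 and 1508 CPM (-1.17 ± 0.36, adjusted p = 0.171), and Fcrls, an Fc receptor-like gene, at 74.9 to 155 CPM against 218 to 566 CPM (adjusted p = 0.267). Of 20 iron and heme genes Hpgds and Lrp1 were higher, and of 27 lipid genes Lrp1.

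Markers of other cell types were present at low levels, with larger sums in MHCII+CD11c- libraries for several types. Summed B cell markers stood at 87.6 to 115 CPM in LYVE1+CX3CR1+ and 131 to 397 CPM in MHCII+CD11c- libraries. Of 9 such markers 4 were at 0 in all LYVE1+CX3CR1+ libraries and none was in the others, and Cd79b, a chain of the B cell receptor, was called (at the floor against 5.48 to 8.69 CPM, at least 13.3-fold lower, adjusted p = 0.0254, up to 0.181). Summed neutrophil markers stood at 1.10 to 9.07 CPM against 14.4 to 326 CPM, with 3 of 10 at 0 in LYVE1+CX3CR1+ libraries. Summed T and NK cell markers stood at 8.35 to 14.0 CPM against 31.5 to 43.9 CPM, with 2 of 8 and 1 of 8 at 0.

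Endothelial markers summed to 10.8 to 15.2 CPM against 31.1 to 35.6 CPM (2 of 11 and 1 of 11 at 0), mast cell markers to 0.787 to 4.59 CPM against 5.48 to 19.0 CPM (1 of 9 and 3 of 9 at 0), adipocyte markers to 0.270 to 1.57 CPM against 4.06 to 12.4 CPM (1 of 7 in each at 0) and osteoclast markers to 32.8 to 79.7 CPM against 100 to 348 CPM (0 of 6 at 0). In MHCII+CD11c- libraries most of the osteoclast sum was Mmp9 (13.1, 7.03 and 50.8 CPM against 228, 68.4 and 324 CPM). Of the 6 osteoclast markers 4 had negative and 2 positive fold changes. Ctsk lay the other way, at 12.3, 19.7 and 12.3 CPM against 6.19, 7.42 and 4.01 CPM, and so did Acp5, with overlap. Ranges of the sums overlapped for fibroblast markers (76.3 to 109 CPM against 83.4 to 162 CPM), muscle markers (11 to 25.9 CPM against 16 to 47.1 CPM), erythroid markers and cartilage and bone markers. Schwann cell markers, which include S100b, had 531 to 670 CPM against 390 to 469 CPM. Of 73 such markers tested, Cd79b was the 1 called by edgeR, while DESeq2 called 8, voom called 4 and 28 had an unadjusted p under 0.05. The part of such cells in the lower genes, among them Klrk1, Cd177, Flt3 and Itgb7, was not tested.

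The same 2 subsets were also sorted 8 h after IC, in 6 libraries that share none with the control comparison but enter the same fit. Of the 52 higher genes 50 had the same sign there (96.2%), and of the 186 lower genes 180 did (96.8%), while 62.7% of all genes tested had the same sign in both. In the IC libraries 846 genes (5.54%) were called, 114 higher (0.746%) and 732 lower (4.79%), including 22 of the 52 and 124 of the 186, each in the same direction. Arsb, for example, had 2.23 log2 units after IC (adjusted p = 0.00129) and Mgl2 had -4.78 (adjusted p = 1.23e-06). Of the genes with another sign, Ccl3 went from 1.6 in controls to -0.07 ± 0.29 after IC (adjusted p = 0.928) and Cd24a from -2.56 to 0.56 (adjusted p = 0.53), but the difference between treatments was not called for either (adjusted p = 0.234 and 0.182). That difference was called for 4 of the 15272 genes (0.0262%), in 3 of them with a positive sign (0.0196%) and in 1 with a negative sign (0.00655%).

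**Figure D5:**
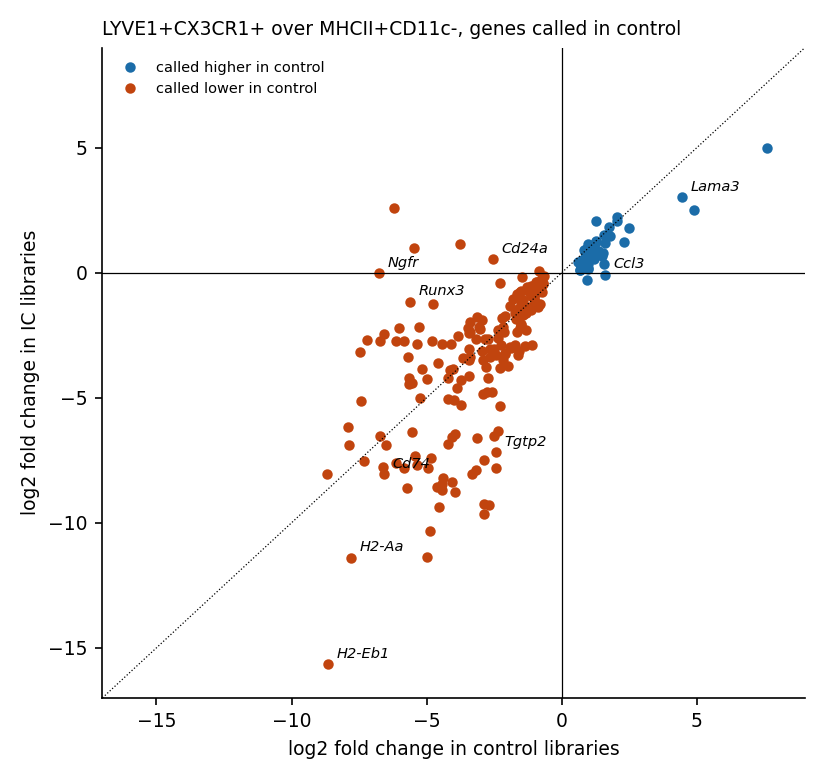
Log2 fold change of LYVE1+CX3CR1+ over MHCII+CD11c- macrophages in the IC libraries (vertical axis) against that in control libraries (horizontal axis) for the 238 genes called in controls, blue for the 52 higher and orange for the 186 lower; the dotted line marks equal values. Most points lie in the lower left and upper right corners, and the most negative IC values belong to genes at or near 0 counts in LYVE1+CX3CR1+ libraries, whose fitted size depends on the prior count.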

How the data were processed

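Libraries of sorted synovial macrophages were made with a low-input kit that marks strand, from 5 ng of RNA, and read as pairs of 150 bases. Per the labels and the study's methods, the authors removed adaptors and poor bases with Trim Galore, checked reads with FastQC, aligned them to mm10 with HISAT2 and assigned them to genes with featureCounts. The deposited values are raw counts of reads for each gene symbol. Tool versions, the annotation and whether strand was used are not given in the sources used here. The study names DESeq2 for its tests and sva for batch effects, and the batch is not named. Reads of near-identical or overlapping genes may be split or lost, which bears on Gpr137b, Tgtp2, the Cd209 and Gbp families and ribosomal protein genes. Counts of all 17 libraries were the same in the joint table and in the single tables, and 1 column that matched no sample and summed to 0 was not used.

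Tests on the counts used edgeR 4.0.16 under R 4.3.3. Low genes were dropped with filterByExpr (6 groups, minimum count 10) and libraries were scaled by TMM. All 17 libraries entered 1 quasi-likelihood model with a mean per group (glmQLFit, robust; residual degrees of freedom 11), from which glmQLFTest gave each contrast. Genes with an adjusted p under 0.05 (Benjamini-Hochberg over all genes tested) were called. Levels are CPM on TMM-scaled library sizes and SE belong to the log2 fold changes of the model. A fold against a group with at most 3 counts in every library is a bound, computed against 3 counts per library. Floors cover counting error only, since PCR copies of a molecule are counted apart. Of the gene symbols 22267 were found directly and 305 by synonym (98.7%) in the mouse annotation of GRCm38 (mm10), and coordinates count from 1.

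Alternatives were other scalings and filters, DESeq2 1.42.0, voom in limma 3.58.1, fits on 6 or 9 libraries, sva 3.50.0, equal depth, a length offset, a block for the replicate number and each library left out. The comparison, the gene lists and the tests were chosen with earlier results of these data known. Genes named are all lining and class II list members. To these were added, in each direction, up to 15 called genes with the smallest p and no overlap, the 10 with the largest fold change and the 10 with the highest level. From each other list up to 4 called members were named, or the 2 with the smallest p where none was called, as were called interaction genes and Fcgr2b. Genes outside this rule are said to be chosen after their values were seen, or are further called members of a list, and not every gene that met the rule is described. On simulated counts for this comparison (14521 genes), 59 of 100 genes changed by 2 log2 units and 19 of 100 changed by 1 were called, with 3 of 14321 unchanged genes.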

Additional observations from a re-analysis of the deposited data

Results flagged for a closer look

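The difference between the subsets was set against the same difference after IC (control difference minus IC difference, edgeR quasi-likelihood F test, Benjamini-Hochberg). Of 15272 genes, 4 differed (0.0262%), and 1152 had an unadjusted p under 0.05. For H2-Eb1 the value was 7.0 ± 0.82 log2 units (adjusted p = 0.000367): LYVE1+CX3CR1+ libraries had 3.78, 4.59 and 7.54 CPM in controls and 0 counts in all 3 after IC, while MHCII+CD11c- libraries had 1938 to 2285 CPM and then 1325, 1412 and 1463 CPM. For Tgtp2, an interferon-inducible GTPase whose near-identical copy Tgtp1 may share its reads, the value was 4.72 ± 0.74 (adjusted p = 0.0116): LYVE1+CX3CR1+ libraries had 8.50, 6.22 and 5.86 CPM and then 1.17, 0 and 0 CPM, and the others 44.8, 39.4 and 28.1 CPM and then 49.4, 77.9 and 72.1 CPM. Both sizes depend on the prior count, since a group was at or near 0 counts.

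For Sdc4, a syndecan, the value was 1.78 ± 0.31 (adjusted p = 0.0291). Its LYVE1+CX3CR1+ libraries had 69.6, 107 and 64.5 CPM in controls and 98.0, 80.6 and 70.9 CPM after IC. Its MHCII+CD11c- libraries had 178, 190 and 145 CPM and then 533, 628 and 668 CPM. For Runx3 the value was -4.47 ± 0.80 (adjusted p = 0.0416), with LYVE1+CX3CR1+ libraries at 0.157, 0 and 0.419 CPM and then 4.10, 14.5 and 3.32 CPM, and the others at 7.60 to 17.9 CPM and then 15.9 to 16.8 CPM. The 4 genes were also called by DESeq2 (adjusted p from 0.000593 to 0.00496) and none of them by voom (0.172 to 0.406) or voom with quality weights (0.261 to 0.647).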

How the results depend on the processing

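The count of 238 genes was between 227 and 310 with other scalings, other filters, voom, the 9 control libraries, surrogate variables, equal depth or a length offset, and 192 with a fold threshold of 1 log2 unit. It was 492 with DESeq2, 977 with voom and quality weights, 494 with only the 6 libraries and 85 at an adjusted p under 0.01. Leaving out 1 library gave 96 to 411 genes. With the replicate number as a block it was 376 on 17 libraries and 675 on 6. The numbers were not taken to pair the samples, and the labels do not say whether same-numbered libraries came from the same mice. Deviations of same-numbered libraries of these 2 subsets had correlations of 0.00738, 0.127 and 0.0468. The value of 0.127, for the libraries numbered 2, was the highest of any pair, but not every library correlated best with its own number. The biological coefficient of variation was 45.1% over 17 libraries and 29.7% over 6. Scaling moved the median of all genes by little (-0.057 at most).

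Of 2812 values of named genes and alternatives, 2486 kept their side of the threshold, 252 lost a call and 74 gained one. No called value changed direction, while the uncalled Comp, Folr2, Hbb-bs and Rfxap had the other sign under some alternatives (adjusted p of at least 0.774). Of 87 called named genes 32 were called throughout. Those lost were 30, 8 and 39 without MHCII+CD11c- library 1, 2 or 3, and 39, 24 and 39 without LYVE1+CX3CR1+ library 1, 2 or 3. The 4 interaction genes were 38 with DESeq2, 10 with the block, 0 with voom and 0 with voom and quality weights, where 1298 and 1087 genes had an unadjusted p under 0.05. The cause of these differences was not tested. With 3 libraries a group, small changes are largely out of reach, and not only those of low genes. In the simulation, which left the lowest genes unchanged, 19 of 100 genes changed by 1 log2 unit were called.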

Other observations

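Ribosomal protein genes, a list added after the data were seen, had negative fold changes in 78 of 84 members, with a median of -0.48, and 11 (13.1%) were called lower. Over all 15272 genes tested, 7685 had negative fold changes and 1.22% were called lower. Rpsa, the most abundant of those called, stood at 549, 429 and 445 CPM in LYVE1+CX3CR1+ against 762, 1003 and 707 CPM in MHCII+CD11c- controls (-0.80 ± 0.17, adjusted p = 0.0123, up to 0.0845). Rps16 and Rps6 differed by -0.81 ± 0.17 and -0.72 ± 0.15 (adjusted p = 0.0125 and 0.0131, up to 0.0767 and 0.0796). Reads of these genes can be shared with pseudogenes. Without MHCII+CD11c- library 2, 7 of the 84 were called lower and the median was -0.38. Of 18 genes of the mitochondrial genome none was called by edgeR, DESeq2 or voom, 2 had an unadjusted p under 0.05, and the median was 0.12, or 0.20 with bounds.

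Further called genes are named here after their values were seen. Plbd1, a phospholipase B-like protein, stood at 4.88, 1.89 and 5.44 CPM against 168, 83.4 and 158 CPM (-4.99 ± 0.48, adjusted p = 0.000135). Map4k1, a kinase of blood cells, stood at 1.26, 1.35 and 1.40 CPM against 46.3, 16.8 and 35.8 CPM (-4.59 ± 0.60, adjusted p = 0.000264). Arc, an immediate early gene of neurons, stood at 26.9, 32.2 and 26.1 CPM against 102, 74.2 and 83.9 CPM (-1.61 ± 0.23, adjusted p = 0.000264), and C1qtnf1, a secreted relative of complement C1q, at 28.7, 25.9 and 37.0 CPM against 189, 86.4 and 124 CPM (-2.12 ± 0.38, adjusted p = 0.00449). Apobec3, a cytidine deaminase, stood at 22.4 to 30.8 CPM against 56.7 to 82.6 CPM (-1.42 ± 0.27, adjusted p = 0.00598). These 5 were called under all 20 alternatives.

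For genes called without MHCII+CD11c- library 2, its own values were compared with those of libraries 1 and 3. For the 139 higher genes, LYVE1+CX3CR1+ libraries were above library 2 by a median of 0.53 log2 units and above the other libraries by 1.39. For the 272 lower genes the medians were -1.16 and -2.07. The same comparison for library 1, with 98 lower genes called without it, gave -2.47 against -2.46.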
